A study of Mus musculus with 6 samples.

Results

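The 10 genes described here, Zfp534, Zfp600, Zfp979, Zfp980, Zfp981, Zfp982, Zfp984, Zfp985, Zfp992 and Rex2, are neighbouring zinc finger genes of mouse chromosome 4 whose signal is high in embryonic stem (ES) cells. They are 10 of the 22180 genes that could be tested, and each has at least 1 probe set that names it alone. They were chosen by their measured values, as near-identical neighbours with steep falls in the log2 difference between the groups compared here. Their levels and differences are therefore a description and carry no test. The tested cells were Pax7-GFP cells, sorted for GFP driven by a Pax7 reporter once mouse ES cell lines had differentiated toward skeletal muscle for 3 weeks (3 samples). Their reference was undifferentiated, pluripotent mouse ES cells (3 samples). The sources used here do not give strain, genotype, the names of the lines or the construction of the reporter. The sort gates of each reporter line were set on its undifferentiated culture. Each sample was hybridised to 1 single-colour array, and values are log2 signals of robust multi-array average (RMA), the authors' background-corrected and normalized summary of each probe set.

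These genes encode proteins of the KRAB zinc finger class. The zinc fingers read DNA sequence, and the KRAB domain recruits the co-repressor Trim28, which brings the histone methyltransferase Setdb1 to lay down repressive histone marks. In early embryos and ES cells, proteins of this class are known for silencing endogenous retroviruses, and the genes multiply as clusters of near copies. Zfp979 is also known as Ssm1b, a strain-specific modifier of transgene methylation in mice. No role of their own is given here for the other members.

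All 10 genes lie on chromosome 4, in the order Zfp980, Zfp600, Zfp992, Zfp981, Rex2, Zfp982, Zfp985, Zfp979, Zfp534 and Zfp984 in the reference gene table (GRCm38.p6). Another 58 annotated genes lie between the outermost members, 5 of them protein-coding. Because the members are near copies that move together, their promoters are set side by side here. RefSeq windows of the same build were at hand for 9 members, and Zfp992 was not among them. For each gene the 250 bases before the listed transcript start were searched, and in the genes with several listed starts (2 for Zfp600, 3 for Zfp982) the start that held the shared sequence was taken. The 9 windows share a run of 15 bases, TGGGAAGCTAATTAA, and a second run of 9 bases, TATTGGGCG, both read in the direction of transcription. Both are in capitals below, with 10 bases before the first and 15 bases after the second, read 5′ to 3′. Gm13212, a protein-coding gene that flanks the cluster on the Zfp980 side, is shown last because it holds both runs too and was measured.
Zfp980, chr4:145670546-145670646, plus strand: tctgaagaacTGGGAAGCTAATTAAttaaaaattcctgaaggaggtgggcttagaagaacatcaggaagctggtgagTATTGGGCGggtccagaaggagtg
Zfp600, chr4:146156682-146156782, plus strand: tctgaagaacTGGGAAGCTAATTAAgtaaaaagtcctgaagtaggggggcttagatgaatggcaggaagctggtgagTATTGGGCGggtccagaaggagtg
Zfp981, chr4:146514746-146514847, plus strand: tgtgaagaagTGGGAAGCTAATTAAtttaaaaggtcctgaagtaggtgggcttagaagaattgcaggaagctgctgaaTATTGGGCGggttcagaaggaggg
Rex2, chr4:147021705-147021805, plus strand: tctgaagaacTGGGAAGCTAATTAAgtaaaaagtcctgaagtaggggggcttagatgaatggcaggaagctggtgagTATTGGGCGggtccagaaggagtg
Zfp982, chr4:147492256-147492356, plus strand: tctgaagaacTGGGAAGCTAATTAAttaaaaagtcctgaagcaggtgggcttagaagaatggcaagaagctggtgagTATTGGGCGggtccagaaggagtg
Zfp985, chr4:147553131-147553231, plus strand: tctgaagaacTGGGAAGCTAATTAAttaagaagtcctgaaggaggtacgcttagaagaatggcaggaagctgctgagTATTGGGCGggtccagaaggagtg
Zfp979, chr4:147642559-147642659, minus strand: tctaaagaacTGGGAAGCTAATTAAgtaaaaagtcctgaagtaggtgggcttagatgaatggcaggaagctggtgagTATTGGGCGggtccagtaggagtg
Zfp534, chr4:147702647-147702747, minus strand: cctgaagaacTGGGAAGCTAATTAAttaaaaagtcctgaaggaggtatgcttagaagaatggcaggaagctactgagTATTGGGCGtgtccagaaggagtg
Zfp984, chr4:147809852-147809952, minus strand: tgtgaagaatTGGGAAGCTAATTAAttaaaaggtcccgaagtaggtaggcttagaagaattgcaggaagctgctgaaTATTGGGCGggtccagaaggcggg
Gm13212, chr4:145585050-145585150, plus strand: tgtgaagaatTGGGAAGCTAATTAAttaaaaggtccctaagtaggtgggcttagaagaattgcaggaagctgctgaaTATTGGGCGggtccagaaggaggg

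The stretch between the runs was 52 bases long in 8 of the 9 members and 53 bases in Zfp981. The printed windows of Zfp600 and Rex2 differ at 0 positions, and that of Zfp979 differs from Rex2 at 3. The windows of Zfp534 and Zfp984 differ from Rex2 at 10 and 13 positions. The 250 bases were also aligned end to end with free end gaps, and identity was taken over the overlap, 210 to 255 columns. By this measure the 36 pairs of members were between 72.0% and 99.6% identical (median 85.2%). The closest pair was Zfp600 with Rex2, and the most distant was Zfp980 with Zfp984. Zfp984 resembled the neighbour Gm13212 (94.2%) more than any member.

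**Figure D1:**
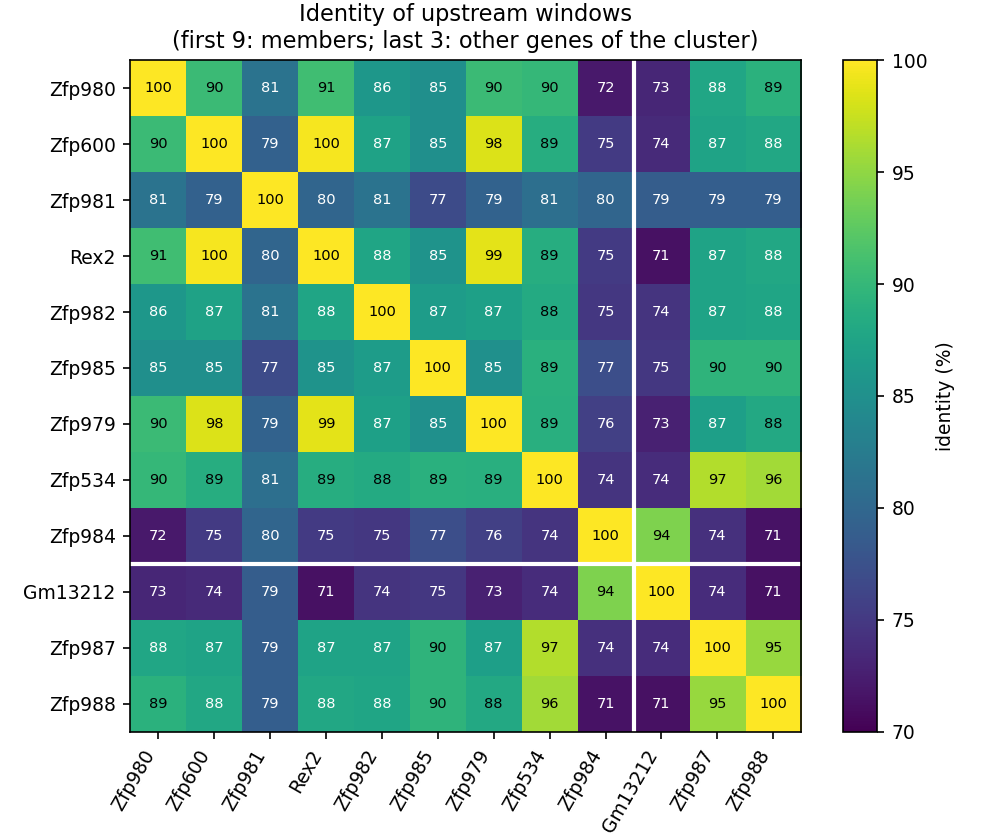
Percent identity over the overlap of the aligned 250 bases upstream of the start, in gene order within each set (colour scale from 70% to 100%). Each pair of 9 members and 3 other genes of the cluster is shown. Zfp600, Rex2 and Zfp979 form the closest trio at 98.4% to 99.6%, while Zfp984 stands with Gm13212 at 94.2%.

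All motifs were searched on both strands. The 15-base run occurred in 12 of 32851 windows (0.0365%), those of the 9 members and of Gm13212, Zfp987 and Zfp988, which all lie in or beside the cluster. The second run occurred in 37 windows (0.113%) of 32 genes, 9 of them members and 23 others. The first run contains TAATTA, the core read by many homeodomain proteins, which 4.84% of all windows hold. The second run contains CCAAT on the opposite strand, the CCAAT box (33.8% of windows), and in 8 of the 9 members it runs into GGGCGG, the GC box (32.7% of windows). The octamer of Oct4 class factors, ATGCAAAT, and the Esrrb element TCAAGGTCA were found in 0 of the 9 windows, against 1.6% and 0.387% of all windows. The E-box CANNTG was in 3 of the 9 members, counting every listed start of a gene, against 66.2% of all windows. A match describes letters and not binding, and a missing match holds for these windows only.

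Marker genes followed the labels. All 8 ES cell markers, Nanog, Pou5f1, Sox2, Zfp42, Esrrb, Klf4, Tdgf1 and Fbxo15, were lower in Pax7-GFP cells, and their mean log2 level was 5.48 to 5.67 in Pax7-GFP arrays and 10.2 in each ES array. All 7 myogenic markers, Pax7 among them, were higher, at 10.8 to 11.1 in Pax7-GFP arrays and 5.95 to 6.03 in ES arrays. Of 7 fibroblast markers 5 were higher and 0 lower (7 higher and 0 lower at an unadjusted limma p under 0.05), with mean levels of 8.37 to 8.84 in Pax7-GFP and 6.28 to 6.57 in ES arrays. Neural markers were higher in 1 and lower in 4 of 7, at 5.21 to 5.38 in Pax7-GFP and 7.29 to 7.36 in ES arrays. Endothelial markers were higher in 1 and lower in 1 of 5. The part of these other cell types in the differences below was not tested. Array medians lay between 5.61 and 5.69, and 0 pairs of arrays were identical.

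All 10 members were lower in Pax7-GFP cells by at least 8-fold, with a median log2 difference of -5.23, while the median of all genes was 0.024. A gene was called where its limma adjusted p was under 0.05 and its groups differed 2-fold or more. All 10 members were called lower, as were 7.15% of all genes, and 0 were called higher, as were 7.34% of all genes. At a 4-fold minimum the 10 stood beside 2.13% of all genes, at an 8-fold minimum beside 0.929%, and the 6 members that were at least 32-fold lower beside 0.14%. Every Pax7-GFP array lay under every ES array for all 10, as for 25.6% of all genes. The choice of members fixes these counts, so nothing is read from them. In a bulk sample, fewer cells that use a gene and less of its RNA per cell cannot be told apart.

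The 5 members that appear together on 1 shared probe set come first. Zfp981 stood at 4.36, 4.43 and 3.96 in Pax7-GFP arrays, against 12.23, 12.14 and 12.26 in ES arrays. This is a log2 difference of -7.96 (SE 0.13), which became -7.21 with every value under 5 set to 5. The Pax7-GFP signals lay under the 25th percentile of their arrays, so the size of the fall is uncertain.

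Rex2 stood at 4.17, 3.78 and 4.18 in Pax7-GFP arrays, against 10.84, 10.68 and 10.55 in ES arrays, a log2 difference of -6.65 (SE 0.13), and -5.69 with the same floor. Zfp980 stood at 4.63, 4.42 and 4.13 in Pax7-GFP arrays, against 10.59, 10.47 and 10.46 in ES arrays, a difference of -6.11 (SE 0.13), and -5.50 with the floor. In both genes the groups were far apart and no single array stood out.

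Zfp600 was less even. It stood at 6.15, 5.08 and 6.02 in Pax7-GFP arrays, against 10.38, 9.95 and 10.03 in ES arrays, a log2 difference of -4.37 (SE 0.27). Its Pax7-GFP replicate 2 lay about a log2 unit under the other two. Its promoter differed least from that of Rex2, while the log2 differences of the pair were -4.37 and -6.65.

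Zfp979 has 3 probe sets of its own, and they disagreed. The one with the highest mean, used here, gave 5.69, 6.13 and 5.76 in Pax7-GFP arrays, against 9.35, 9.36 and 9.61 in ES arrays, a log2 difference of -3.58 (SE 0.13). The next gave 4.20, 4.16 and 3.97 in Pax7-GFP arrays, against 9.53, 9.58 and 9.68 in ES arrays, a difference of -5.49. The last was dim on all arrays, at 3.24, 3.06 and 3.26 in Pax7-GFP and 3.35, 3.44 and 3.39 in ES arrays, a difference of -0.21. The size of the Zfp979 fall therefore depends on the probe set, and their mean gave -3.09.

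The probe set that carries all of Zfp600, Zfp979, Zfp980, Zfp981 and Rex2 stood at 6.18, 5.83 and 5.97 in Pax7-GFP arrays, against 12.72, 12.60 and 12.63 in ES arrays. Its log2 difference, -6.66, lay within the span of the differences of those 5 genes by the probe set used for each, -7.96 to -3.58. A near copy may add signal to any probe set of this family, and no probe sequences were used here, so the values are uncertain as to single copies.

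Zfp992 kept a signal above the array median in all 3 Pax7-GFP arrays, as did Zfp979 by the probe set used. Zfp992 stood at 7.17, 6.67 and 7.04 in Pax7-GFP arrays, against 12.13, 12.23 and 12.31 in ES arrays, a log2 difference of -5.26 (SE 0.13). A further 2 probe sets name Zfp992 together with Zfp991, Zfp993 and the pseudogene Znf41-ps, and their differences were -4.14 and -3.99. On these shared probe sets the Pax7-GFP arrays read 7.10 to 8.01, above the array median in all 3 arrays.

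Zfp534 stood at 4.06, 4.22 and 4.11 in Pax7-GFP arrays, against 10.28, 10.04 and 9.84 in ES arrays, a log2 difference of -5.92 (SE 0.12), and -5.05 with every value under 5 set to 5. The probe set it shares with Gm13212 stood at 3.99, 3.50 and 3.44 in Pax7-GFP arrays, against 8.42, 8.41 and 8.43 in ES arrays, a difference of -4.78. Both probe sets were therefore low in every Pax7-GFP array.

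Zfp985 stood at 3.17, 3.42 and 3.33 in Pax7-GFP arrays, against 8.42, 8.55 and 8.55 in ES arrays, a log2 difference of -5.20 (SE 0.093). Zfp982 stood at 3.58, 3.48 and 3.41 in Pax7-GFP arrays, against 7.90, 8.12 and 7.69 in ES arrays, a difference of -4.41 (SE 0.12). In both genes the Pax7-GFP signals lay under the 25th percentile of their arrays, and no other probe set named them. With every value under 5 set to 5, the difference of Zfp982 was -2.90 and that of Zfp985 was -3.51.

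Zfp984 had the widest spread. It stood at 6.17, 5.37 and 4.81 in Pax7-GFP arrays, against 10.05, 9.97 and 9.74 in ES arrays, a log2 difference of -4.47 (SE 0.29). The SD among Pax7-GFP arrays was 0.68, against 0.16 among ES arrays. Across the members the median SD was 0.24 in Pax7-GFP and 0.15 in ES arrays, and for all genes 0.14 and 0.084. The lowest Pax7-GFP array was replicate 1 for 3 members, replicate 2 for 3 and replicate 3 for 4, so no array was low throughout.

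**Figure D2:**
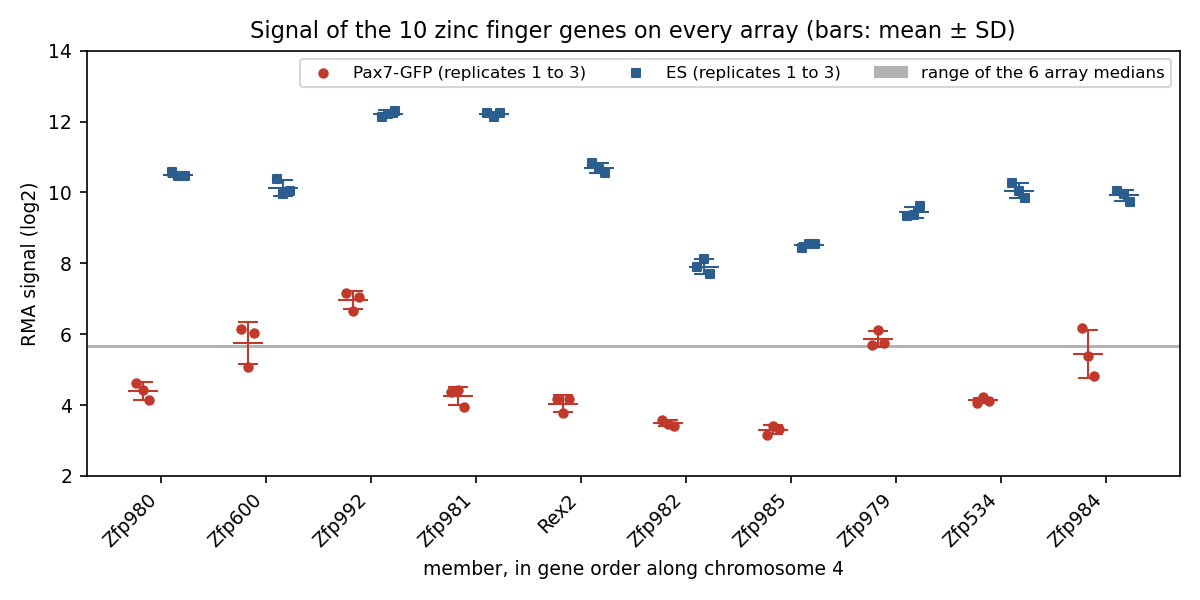
Log2 RMA signal of the 10 members on each array, red circles for the 3 Pax7-GFP and blue squares for the 3 ES arrays, with mean ± SD and a grey band for the 6 array medians. Pax7-GFP values run from 3.17 for Zfp985 to 7.17 for Zfp992, and every gene's ES values lie above its Pax7-GFP values.

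**Figure D3:**
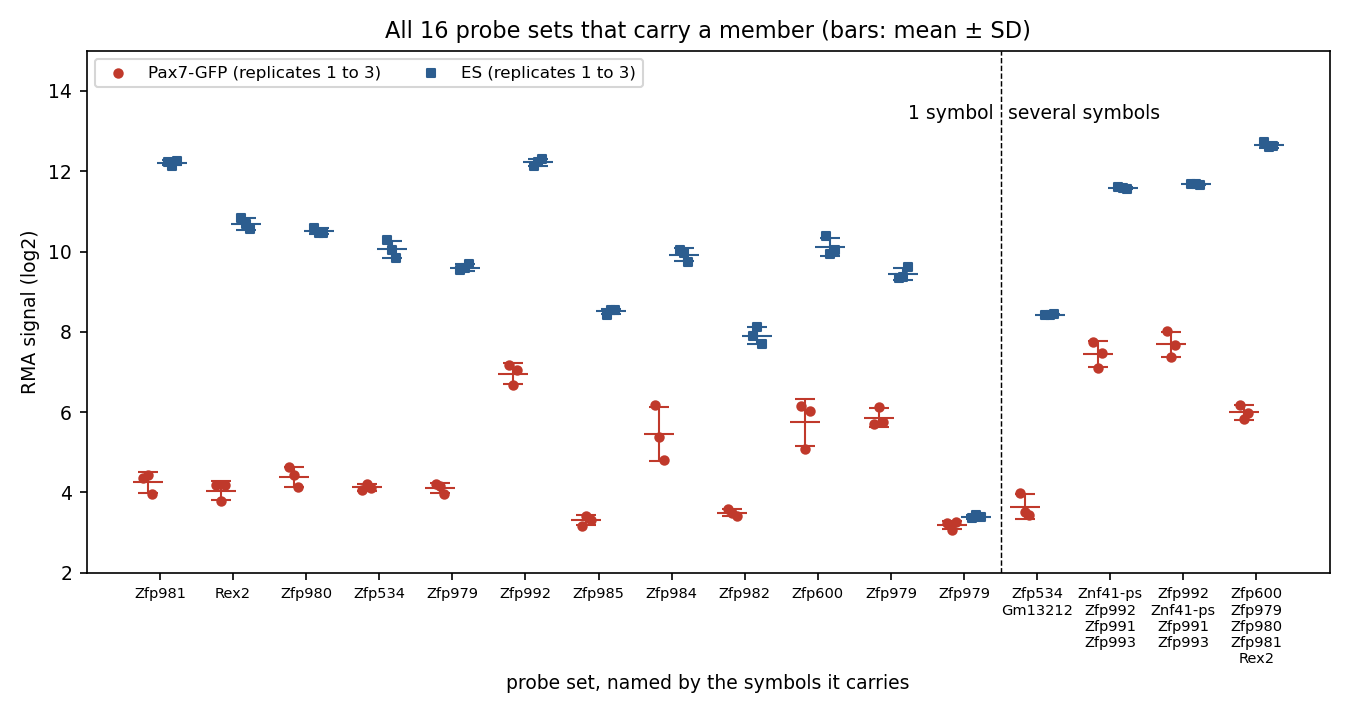
Log2 RMA signal on each array for the 12 probe sets that name 1 member alone (left of the dashed line) and the 4 that carry several symbols (right), with mean ± SD. The groups lie far apart in 15 probe sets, and in 1 probe set of Zfp979 all arrays read 3.06 to 3.44.

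Placed among all rows of their array, all 10 members lay above the 75th percentile in every ES array. In every Pax7-GFP array 5 members, Zfp981, Rex2, Zfp982, Zfp985 and Zfp534, lay under the 25th percentile. No detection calls accompany the values, so these genes cannot be called absent there. The rule names no threshold of steepness. By the probe sets used and without a floor, the smallest fall among the members was that of Zfp979, at rank 128 of all falls. By the same values 9 of the 10 were among the 100 largest. Another probe set of Zfp979 fell by more, at -5.49. With every value under 5 set to 5, Zfp982 (-2.90) and Zfp985 (-3.51) fell by less than Zfp979 (-3.58).

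The genes around the members were taken by position, not by value. Of 68 neighbours, which are the 58 genes between the outermost members and 5 on each side, 12 had a probe set of their own. Of these 12, 5 were lower and 0 higher in Pax7-GFP cells (41.7% lower, against 7.15% of all genes), with a median log2 difference of -0.58. At an unadjusted limma p under 0.05, 8 were lower and 1 higher. With dim genes left out, 4 of 10 were lower, against 1555 of 13583 genes. Most neighbours (51) are pseudogenes, and 51 neighbours had no named probe set. How much signal of the members reaches the probe sets of neighbours was not tested. The counts and p-values of neighbours are therefore not independent of the members.

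Gm21082, a pseudogene between Zfp981 and Rex2, stood at 4.84, 4.54 and 4.40 in Pax7-GFP arrays, against 11.86, 11.74 and 11.63 in ES arrays, a log2 difference of -7.15 (SE 0.13, limma adjusted p = 1.45e-08). Gm13212 stood at 4.05, 3.37 and 3.49 in Pax7-GFP arrays, against 8.43, 8.32 and 8.19 in ES arrays, a difference of -4.68 (SE 0.17, limma adjusted p = 2.67e-07). A second probe set of Gm13212 was at 4.28 in Pax7-GFP and 4.24 in ES arrays on average. With the mean of both probe sets the difference of Gm13212 was -2.32, and with every value under 5 set to 5 it was -3.32, so its size depends on the probe set and on the floor (limma adjusted p = 7.24e-07 and 5.56e-05). The probe set that Gm13212 shares with the member Zfp534 read nearly the same as the one used. It stood at 3.99, 3.50 and 3.44 in Pax7-GFP and 8.42, 8.41 and 8.43 in ES arrays. Whether the fall of Gm13212 is its own was not tested.

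The transcribed pseudogenes Gm13238 and Gm13034, between Zfp980 and Zfp600, fell by less. Gm13238 averaged 5.41 ± 0.38 in Pax7-GFP and 8.78 ± 0.033 in ES cells (SD, n = 3 each), a log2 difference of -3.37 (limma adjusted p = 1.66e-06). Gm13034 averaged 6.93 ± 0.37 in Pax7-GFP and 8.65 ± 0.15 in ES cells (SD, n = 3 each), a difference of -1.72 (limma adjusted p = 9.72e-05). The non-coding RNA 4933438K21Rik, between Rex2 and Zfp982, differed by -1.57 (SE 0.12, limma adjusted p = 1.58e-05). Its signal was low, and with values under 5 set to 5 it stood at -0.45 and was not called.

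Within the cluster 2 measured genes were not called. Gm13149, a pseudogene, differed by -0.73 (SE 0.12, limma adjusted p = 0.00173), under the 2-fold minimum. The non-coding RNA 1700095A21Rik, which is dim, stood at 3.27 in Pax7-GFP and 3.41 in ES cells, a difference of -0.14 (limma adjusted p = 0.373). Another 6 probe sets name several neighbours and no member. The 2 of Zfp991 with Zfp993, protein-coding genes that had none of their own, differed by -4.66 and -4.88. The 4 that carry Gm13035 with Gm13249 or Gm13149 differed by -0.48, -0.72, -0.66 and -0.67, short of 2-fold.

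Past Zfp984 the large differences stopped. The next 5 genes were Rps19-ps3 at -0.44, Zfp933 at 0.083, Miip at -0.44, Fv1 at -0.31 and Mfn2 at 0.83 on the log2 scale, and 0 of them were called. Zfp933, a zinc finger gene, stood at 6.45, 6.44 and 6.43 in Pax7-GFP arrays, against 6.41, 6.42 and 6.24 in ES arrays (limma adjusted p = 0.498). Fv1, a restriction factor of murine leukaemia virus, averaged 7.54 ± 0.35 in Pax7-GFP and 7.85 ± 0.043 in ES cells (SD, n = 3 each, limma adjusted p = 0.180). Mfn2, which fuses mitochondria, passed the p threshold alone (limma adjusted p = 0.000153), as did Miip (limma adjusted p = 0.00988). On the other side of the cluster Gm13212 was the only gene with a probe set of its own.

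**Figure D4:**
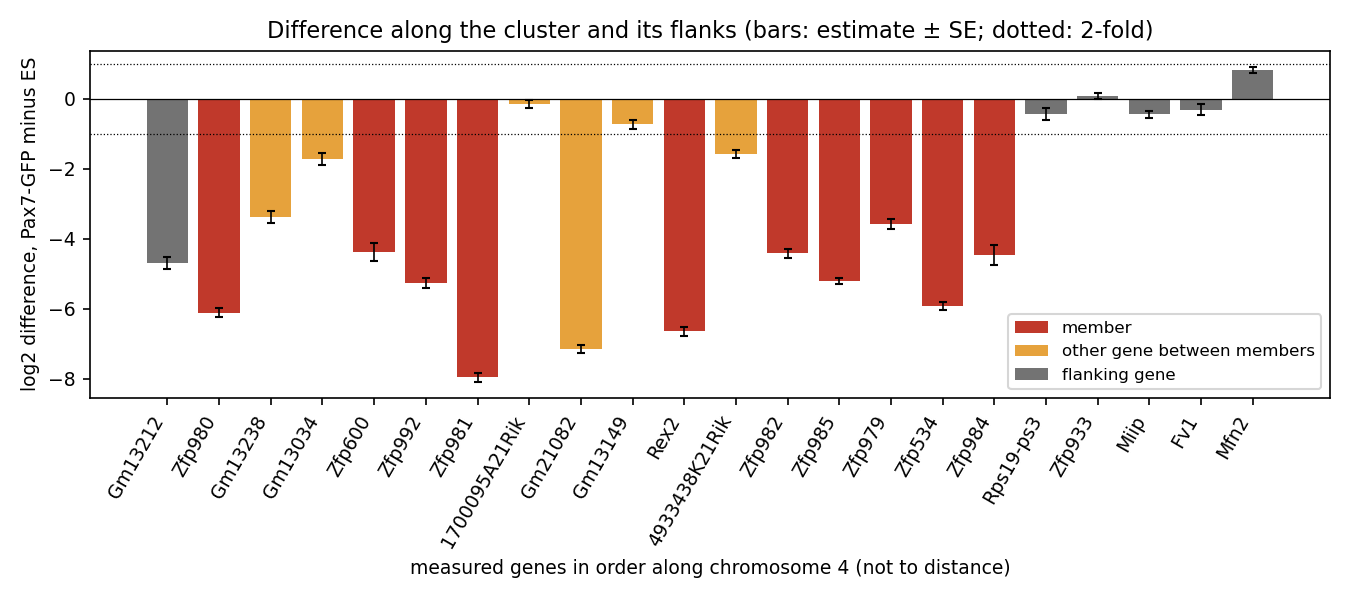
Log2 difference (Pax7-GFP minus ES, estimate ± SE) of the 22 measured genes in their order along chromosome 4, red for members, orange for other genes between them, grey for flanking genes, with dotted lines at 2-fold. The falls run from Gm13212 to Zfp984, with 1700095A21Rik and Gm13149 inside the 2-fold lines, and the 5 genes after Zfp984 stay inside them.

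The promoter runs were also followed outside the cluster. The 15-base run led to 1 measured gene that is not a member, Gm13212. Of the other genes with the 9-base run, 14 outside the cluster were measured. Of these, 0 were lower and 3 were higher (limma with the call rule above), against 7.15% and 7.34% of all genes. The longer form TATTGGGCGGGT, found in 12 windows, led to 2 measured genes outside the cluster, the chromosome 17 zinc finger genes Zfp947 and Zfp994. Zfp947 differed by -0.44 (limma adjusted p = 0.0143) and Zfp994 by -0.74 (limma adjusted p = 0.00549), both short of 2-fold.

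Genes of the machinery through which KRAB zinc finger proteins act were lower or not called. Of 27 listed genes of the co-repressor, histone and DNA methylation machinery, 24 were measured. In Pax7-GFP cells 9 were lower (37.5%, against 7.15% of all genes) and 0 higher (against 7.34%). Of the remaining 15, 10 passed the p threshold but not the 2-fold minimum (4 higher and 6 lower). The median log2 difference of the list was -0.68. At an unadjusted limma p under 0.05, 16 were lower and 4 higher. With dim genes left out, 9 of 24 were lower, against 1555 of 13583 genes. The 9 lower genes were Trim28, Smarcad1, Dnmt3b, Dnmt3l, Uhrf1, Resf1, Tasor, Hdac1 and Daxx. The list was chosen with earlier results of these data known, so its shares are a description.

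Trim28, the co-repressor itself, stood at 10.16, 10.35 and 10.52 in Pax7-GFP arrays, against 11.48, 11.56 and 11.63 in ES arrays, a log2 difference of -1.21 (SE 0.11, limma adjusted p = 3.61e-05). Setdb1 stood at 8.87, 8.88 and 9.14 in Pax7-GFP arrays, against 9.61, 9.70 and 9.63 in ES arrays, a difference of -0.68 (SE 0.097, limma adjusted p = 0.000578). Both kept signals well above the array medians in Pax7-GFP cells. Their differences were small beside those of the members, which were chosen for steep falls.

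The largest falls of this list were those of the DNA methylation genes Dnmt3l and Dnmt3b and of Tasor. Dnmt3l, a cofactor without catalytic activity, averaged 5.15 ± 0.43 in Pax7-GFP and 10.01 ± 0.062 in ES cells (SD, n = 3 each), a difference of -4.86 (limma adjusted p = 3.89e-07). Dnmt3b, a de novo methyltransferase, averaged 6.03 ± 0.21 in Pax7-GFP and 9.39 ± 0.063 in ES cells (SD, n = 3 each), a difference of -3.36 (limma adjusted p = 1.79e-07). Tasor, a subunit of the HUSH silencing complex, averaged 7.69 ± 0.30 in Pax7-GFP and 10.05 ± 0.13 in ES cells (SD, n = 3 each), a difference of -2.36 (limma adjusted p = 5.61e-06).

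KRAB zinc finger genes elsewhere in the genome were mixed. Of 9 listed genes with described targets 3 were lower (33.3%, against 7.15% of all genes) and 0 higher (against 7.34%), leaving 6 without a call. At an unadjusted limma p under 0.05, 3 were lower and 2 higher. With dim genes left out, 3 of 6 were lower, against 1555 of 13583 genes. This list too was chosen with earlier results of these data known, so its shares are a description. The lower genes were Zfp459 at -3.35 (limma adjusted p = 1.92e-07), Zfp57, which guards imprinted regions, at -3.01 (limma adjusted p = 3.92e-05), and Zfp809, which silences murine leukaemia virus, at -2.29 (limma adjusted p = 4.49e-07). Zfp445, the other guardian of imprints, differed by 0.46 (limma adjusted p = 0.00455), short of 2-fold. Zfp568, a repressor of a placental Igf2 transcript, differed by 0.19, Zfp932 by 0.13, Zfp92 by -0.031, Gm15446 by -0.26 and Zfp708 by -0.35, all past neither threshold.

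Across all 327 other genes named Zfp and a number, 43 were lower (13.1%) and 21 higher (6.42%), with a median log2 difference of -0.13. The shares of all genes were 7.15% lower and 7.34% higher. With dim genes left out, 41 of 274 other Zfp genes were lower and 21 higher. Of all genes 1555 of 13583 were then lower and 1604 higher, so the excess of lower Zfp genes was smaller. The members, which were chosen for their falls, took 10 of the 15 lowest places when all 337 genes were ranked by difference.

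**Figure D5:**
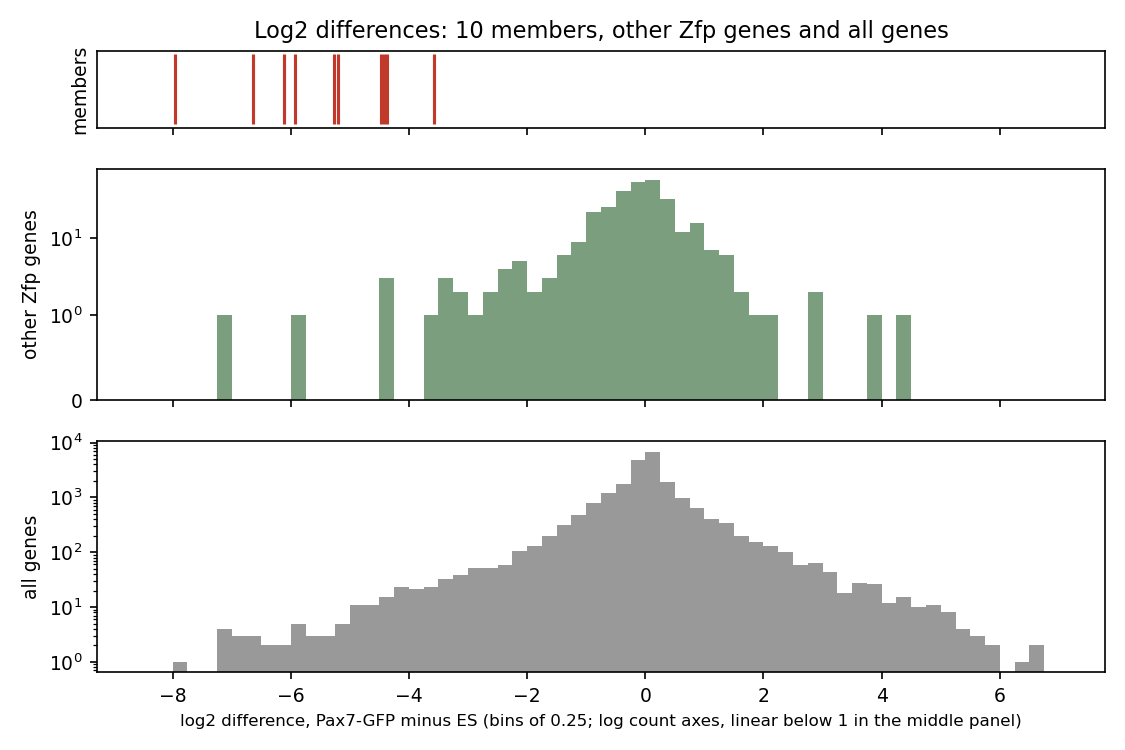
Log2 differences (Pax7-GFP minus ES) of the 10 members as ticks, of 327 other Zfp genes and of all 22180 genes as histograms with logarithmic counts. The members lie between -7.96 and -3.58, in the lower tail of both distributions.

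By profile over the 6 arrays, each gene centred on its own mean, the genes nearest to the members' mean profile were Platr10, Tfcp2l1, Mme, Pla2g1b and 4930519F16Rik, from chromosomes 3, 1, 3, 5 and X. Their root mean square distances were 0.092, 0.11, 0.13, 0.15 and 0.17 on the log2 scale, and their log2 differences lay between -5.55 and -5.14. Tfcp2l1 is a transcription factor of naive pluripotency, and Platr10 is a non-coding transcript associated with pluripotency. The measure takes in the size of the fall, and the genes were picked by it, so they are listed as a description.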

How the data were processed

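Total RNA of 6 mouse samples was measured on single-colour arrays, after a double amplification per the labels' protocols. The deposited values are the authors' RMA signals on the log2 scale, made with RMA in R 2.12.1 per the submitters' processing notes. The sources used here do not give the RMA options, the probe set definition or the genome build. Groups and replicate numbers came from the titles, which call the replicates biological; separate cultures are not described, so the p-values reflect only sample-to-sample spread, which may be technical. The number of arrays limits the precision.

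Gene names came from the platform annotation at GEO: of 41345 rows, 23521 carried 1 symbol, 1814 several, and 16010 were unnamed here. Gene IDs of 23328 rows were found in the reference table, and 0 symbols changed. Each gene was represented by the brightest probe set, on average, that names it alone. The groups were fitted with limma 3.58.1 under R 4.3.3 (two-sided, Benjamini-Hochberg over 22180 genes, no dim gene left out). The fit was tested on simulated data. Same-numbered arrays did not vary together (correlations of deviations -0.11, -0.22 and 0.0069), so the numbers were not used as pairs. The shared runs were the longest run in all 9 windows and the longest other run that is no simple repeat. Promoter windows came from RefSeq (GRCm38.p6) and were aligned with Biopython 1.88 (match 1, mismatch -1, gap opening -2, extension -0.5).

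The members and lists were chosen with earlier results of these data known. Named genes were every member, all 12 measured neighbours, Trim28, Setdb1 and the 3 largest called changes in each direction of the machinery list, every gene of the other KRAB list, and the 5 nearest profiles. Any other gene was named after its values were seen. Alternatives changed the scaling, a floor, the probe set rule, the unit, the filter for dim genes, the variance prior, a replicate block, the fold threshold and the arrays included.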

Additional observations from a re-analysis of the deposited data

How the results depend on the processing

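All 10 members were called lower under each scaling, the floor, the filter on dim genes, each rule for probe sets of genes, the variance prior, the replicate block and both fold thresholds, and without each array in turn. The members were chosen for their steep falls, which fixes these counts, so nothing is read from them. All genes called lower numbered 1585 of 22180 by the main rule, 1501 with the floor and 1784 of 23981 when probe sets with several symbols counted. With single probe sets as the unit, 11 of the members' 12 were called. Their median log2 difference moved from -5.23 to -4.73 with values under 5 set to 5, and to -6.29 when probe sets with several symbols counted, since several members then took 1 shared value. Without single arrays it lay between -5.28 and -5.19. Zfp600, Zfp979, Zfp980 and Zfp981 stood at -6.66 and Zfp992 at -3.99 when shared probe sets counted, and 4930519F16Rik at -4.04 with the floor. Called neighbours numbered 8 of 17 when shared probe sets counted, against 5 of 12. Zfp991, Zfp993 and Znf41-ps then took the same probe set as the member Zfp992, so they are not separate calls. Gm13212 took the probe set it shares with the member Zfp534, at -4.78. At a 4-fold minimum 1010 genes, 3 neighbours, 4 machinery genes and 28 other Zfp genes were called, and with no minimum fold 9126, 8, 19 and 181, by construction. With the replicate number as a block 3213 genes were called, against 3212 without it, and the calls of members (10), neighbours (5), machinery (9), other KRAB genes (3) and other Zfp genes (64) kept their counts. Without single arrays 3169 to 3309 genes and 63 to 71 other Zfp genes were called. Zfp932, not called, stood between -0.093 (without Pax7-GFP replicate 1) and 0.46, and the cause was not tested. Signal over background could not be judged without detection calls.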

Other observations

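Other zinc finger genes with large falls were named after their values were seen. Zfp640, to which the tables used here give no chromosome, differed by -7.03 (SE 0.098, limma adjusted p = 9.86e-09), Zfp936 on chromosome 7 by -5.77 (SE 0.12, limma adjusted p = 1.88e-08) and Zfp951 on chromosome 5 by -4.47 (SE 0.10, limma adjusted p = 2.75e-08). Zfp42, the pluripotency marker also called Rex1, differed by -4.41 (SE 0.081, limma adjusted p = 1.68e-08), and Zfp296 on chromosome 7 by -4.29 (SE 0.15, limma adjusted p = 1.76e-07). Among the chromosomes with at least 10 other Zfp genes whose place was known, chromosome 7 had 12 lower and 4 higher of 86, chromosome 17 had 5 and 0 of 40, chromosome 13 had 8 and 0 of 27, and chromosome 8 had 6 and 3 of 25. Chromosome 11 had 0 lower and 0 higher of 17, chromosome 6 had 0 and 3 of 17, chromosome 9 had 2 and 1 of 17, and chromosome 2 had 3 and 1 of 16. Chromosome 5 had 1 and 1 of 14, chromosome 18 had 1 and 3 of 11, chromosome 15 had 0 and 0 of 10, and chromosome 4, members left out, had 1 and 3 of 10. Across all 327 other Zfp genes 43 were lower (13.1%) and 21 higher (6.42%). The counts per chromosome are small, and differences between chromosomes were not tested.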
